A study of Mus musculus with 18 samples.

Results

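The sequences described here are predicted PIWI-interacting RNAs (piRNAs) from mouse sperm whose genomic origin the study's files place in a repeat class other than LINE/L1, LTR/ERVK and LTR/ERV1. They were chosen by the repeat class beside each entry, among the entries numbered up to the point where the lists of all 18 libraries are whole. The rule found 220387 sequences, which is 36.4% of the entries up to that number, in a file of 801902. They lie on 14 chromosomes, apart from 10 on unplaced scaffolds, and 55854 of them (25.3%) are on chromosome 10. Totals and class comparisons below therefore do not cover the whole genome. The sequences are called remaining-class sequences below. No read count entered the choice.

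Small RNA was sequenced from sperm of ICR mice, an outbred strain, in 3 generations with 3 libraries per group. The F0 NHS group was males exposed to NH3 and H2S for 5 weeks from 3 weeks of age, and the F0 Con group was their control. The F1 NHS and F2 NHS groups were male descendants of the exposed males through matings with normal females, were not treated themselves, and mated at 8 weeks of age in F1; the F1 Con and F2 Con groups were their controls. The comparison asks whether an exposure of the father or grandfather leaves a mark on sperm small RNA. The labels give no doses, do not say what the Con groups received, and do not say whether a library is 1 animal or a pool, so p-values measure only the spread between these libraries.

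piRNAs are small RNAs of germ cells that guide PIWI proteins to transposon and other transcripts. Primary piRNAs usually begin with U, and partners made by the ping-pong cycle usually carry A at position 10. In the mouse testis they are best known for silencing LINE-1 and endogenous retroviruses, while most late, pachytene piRNAs come from long intergenic clusters. The classes covered here are older or less active repeats: ERVL and its relative MaLR, which are LTR retrotransposons, the L2 and CR1 LINEs, and DNA transposons of the hAT and TcMar groups.

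Library totals lay between 17224467 and 29430555 reads, and the remaining-class sequences took 36037 to 97647 of them. In the 16 libraries whose list reaches the known miRNAs, the summed germ cell markers (miR-34b, miR-34c and miR-449a, 5 entries) lay between 3983 and 21777 TPM, which in these files is a read count scaled to a common library total. Markers of smooth muscle and stroma (3 entries) lay between 5926 and 169492 TPM, of red blood cells (4 entries) between 4330 and 77354, of epithelium (5 entries) between 3360 and 25460, and of leukocytes (4 entries) between 176 and 2283. Markers of other cells were thus present beside those of germ cells in the samples labelled sperm, and their part in the results below was not tested. Fewer cells of a type and less RNA per cell cannot be told apart here. A predicted miRNA entry, novel_mir1, split the libraries: 6 of them (F0 NHS replicate 3, F0 Con replicate 2, F1 NHS replicate 2, F2 NHS replicate 1, and F2 Con replicates 1 and 2) held 2378 to 18720 TPM of it, and the other 12 held 42.9 to 621 TPM. The limit of 1000 TPM between them was set after the values were seen, and results that rest on the 6 are given with and without them.

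The sequences below are the 8 with the most reads per library read and the most abundant one of each class that held at least 1% of the reads. They are printed 5′ to 3′ with the first base as a capital, T standing for U. The coordinates (mm10) are those of the repeat copy the files give, and the strand is that of the copy. No sequence was aligned anew.
novel_pir333349: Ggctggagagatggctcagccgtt
novel_pir333342: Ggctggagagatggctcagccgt
novel_pir575602: Gtcaggatggccgagtggtc
novel_pir575604: Tcaggatggccgagtggtc
novel_pir575598: Gtcaggatggccgagtggtct
novel_pir290983: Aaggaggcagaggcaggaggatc
novel_pir290982: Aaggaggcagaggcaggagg
novel_pir208798: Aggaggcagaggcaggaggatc
novel_pir354233: Tatgttgggtatcaaaaaggat
novel_pir459293: Cagggcctaagccgcgccag
novel_pir131207: Ccgtgcctaccatggtgacc

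These 11 sequences fall on 7 repeat copies and share their letters in groups. novel_pir333349 and novel_pir333342, which differ by 1 base at the 3′ end, were assigned to a MaLR copy at chr13:90949919-90950187 on the minus strand, inside an intron of Atg10, a gene of the autophagy conjugation system. Both also matched, letter for letter and in sense, entries that GENCODE M21 annotates as miRNA genes. The first matched 12 annotated genes in sense and the second 14. Neither lay in a RefSeq miRNA hairpin, since the sequences that did held 400 reads together. These matches therefore do not show that they are miRNAs. novel_pir575602, novel_pir575598 and novel_pir575604, of which the last lacks the first G, were assigned to an ERVL copy at chr3:134773527-134774074 on the minus strand, where the annotation lists no gene, and matched no transcript searched. The transcripts searched hold mitochondrial but no nuclear tRNAs, so a match to a nuclear tRNA was not tested for these or any other sequences. The chr3 copy held 86969 reads, 8.58% of the remaining-class reads. novel_pir290983 and novel_pir290982 were assigned to an ERVL copy at chr12:84169187-84169305 (plus strand, in an intron of Mideas, which GENCODE M21 calls Elmsan1), while novel_pir208798, which is novel_pir290983 without its first base, was assigned to another ERVL copy at chr11:61756862-61756959 (plus strand, in an intron of Prpsap2). Sequences that share nearly all their letters were thus given different places, and how many places each could have was not analysed here.

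The most abundant L2 sequence, novel_pir354233, was assigned to chr14:24084065-24084170 (minus strand, no gene) and the most abundant hAT-Charlie sequence, novel_pir131207, to chr10:91067540-91067772 (minus strand, in an intron of Apaf1, a core gene of the apoptosome), matching transcripts in antisense only. The most abundant hAT-Tip100 sequence, novel_pir459293, was assigned to chr17:39842998-39843163 on the plus strand, inside an exon of Gm26917. GENCODE M21 annotates Gm26917 as a long noncoding RNA, and what else this locus may encode was not tested. That copy alone held 302 sequences and 9201 reads, and 83.2% of all hAT-Tip100 reads of at least 18 nt matched a long noncoding RNA of the annotation in sense.

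LTR retrotransposons dominated the set. The 33 class names (12 of them with a question mark, which marks an uncertain class) fell into 3 families: LTR elements with 83.1% of the sequences and 88.6% of the reads, DNA transposons with 10.4% and 7.01%, and LINEs with 6.47% and 4.36%. MaLR alone held 125549 sequences (57.3% of reads) and ERVL 55861 (30.98%). L2 followed with 12214 sequences (3.68% of reads), hAT-Charlie with 15533 (3.50%) and hAT-Tip100 with 1567 (1.72%). The files list no SINE, satellite, simple repeat, tRNA or rRNA class. A class is that of the copy a sequence was assigned to, so this does not show that such sequences are absent.

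A few sequences carried many of the reads, and most sequences were rare. The 8 listed first hold 17.8% of the 1013708 remaining-class reads, and the 10 repeat copies with the most reads hold 37.8%. By contrast, 187317 sequences (85.0%) were found in 1 library, 1326 had no read in any of the 18 lists, and 110 were found in all 18. Those 110 held 28.4% of the reads, and 84 of them were MaLR and 22 ERVL. Of the 110, 46 came from a single MaLR copy at chr10:42856810-42856927 (minus strand, no gene), and 14 from a MaLR copy at chr2:27400951-27402008 (plus strand), which lies in an intron of Vav2, a guanine nucleotide exchange factor, on the strand opposite to it and contains the GENCODE miRNA entry Gm24049.

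Copies rich in reads and copies rich in different sequences were mostly not the same. The copy with the most different sequences was a MaLR copy at chr12:98395502-98396914 (plus strand, no gene) with 1579, and 68.9% of its sequences of at least 18 nt were 24 to 31 nt long, the usual range of mouse piRNAs, against 30.5% over all remaining-class sequences. Of its 24 to 31 nt sequences found in the 12 libraries low in novel_mir1, 77.6% began with U, against 47.5% for all remaining-class sequences counted the same way. An L2 copy at chr2:92554488-92555318 (plus strand, no gene) had 698 sequences, of which 60.5% were 24 to 31 nt, and 84.2% of those in the 12 libraries began with U. The other copies among the 5 with the most sequences, all on chromosome 10, did not stand out in this way: 28.4%, 30.7% and 29.6% of their sequences were 24 to 31 nt, and U began 53.9%, 52.9% and 32.7% of those in the 12 libraries. At the other end, the chr13 copy of novel_pir333349 had 20 sequences for 89586 reads, and none of its 13 sequences of 24 to 31 nt began with U. These values are descriptions of single copies, whose sequences overlap each other. Counted the same way, the classes were closer together, with U in 48.4% for MaLR, 45.2% for ERVL, 49.3% for L2 and 50.9% for hAT-Charlie, and 34.6% for hAT-Tip100. By recurrence over the 18 libraries, U began 37.6% of the 24 to 31 nt sequences found in 1 library, 55.8% of those in 2 to 5, 70.7% of those in 6 to 17, and 40.7% (11 of 27) of those in all 18. This series includes the 6 libraries rich in novel_mir1, whose U share was lower, as given below. Their part in it was not tested.

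Matches to annotated transcripts were counted for the 209089 sequences of at least 18 nt. An exact sense match was found for 30.4%. Each sequence was counted once, small structural RNA or miRNA entries first, then protein-coding genes, then long noncoding RNAs. The protein-coding group also took transcript types that fell in none of the other groups. Counted so, a protein-coding gene was matched by 21.5% of the sequences (20.2% of the reads), a long noncoding RNA by a further 7.51% (7.53%), and a small structural RNA or miRNA entry by 1.38%, which held 12.4% of the reads. The last share was the most uneven, from 2.14% to 54.5% of a library's reads, with a median of 4.56%. RefSeq miRNA hairpins held 93 of the sequences and 0.0405% of the reads.

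Against the 3 large repeat classes, the remaining-class sequences of the 12 libraries low in novel_mir1 were longer and richer in U than LINE/L1. They were poorer in A at position 10 than both ERV classes. Over the 12 libraries low in novel_mir1, 34.6% ± 11.4 of the different remaining-class sequences were 24 to 31 nt long, against 27.7% ± 11.1 for L1 and 30.6% ± 9.72 for ERVK (SD, n = 12 libraries), higher in 12 of 12 libraries both times (exact sign permutation, 2-sided, p = 0.000977 each, adjusted over the 18 comparisons made). ERV1 had 34.9% ± 9.88, with the remaining classes higher in 6 of 12 libraries (exact permutation adjusted p = 0.644). Among sequences of that length, 56.3% ± 4.18 began with U, against 49.7% ± 4.96 for L1 (higher in 12 of 12, adjusted p = 0.000977) and 56.4% ± 3.75 for ERVK (higher in 4 of 12, exact permutation adjusted p = 0.726). For ERV1 it was 53.5% ± 5.51 (remaining classes higher in 11 of 12, exact permutation adjusted p = 0.0122). A at position 10 was found in 26.6% ± 1.60, against 32.4% ± 2.64 for ERVK and 29.4% ± 2.44 for ERV1, lower in 12 of 12 libraries each time (exact permutation adjusted p = 0.000977 each), while the L1 mean was 26.9% ± 1.92 (adjusted p = 0.424). The adjusted value of 0.000977 follows from the smallest p these permutations can give. Over all 18 libraries the U difference from L1 was 3.57 points against 6.55 points in the 12, and the remaining-class share was higher in 12 of 18. The share with A at position 10 was lower than in L1 in 14 of 18 (sign permutation with 100000 resamples, adjusted p = 0.0109).

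The first base of the sequences separated the 2 sets of libraries. In the 12 libraries low in novel_mir1, 48.5% to 62.8% of the 24 to 31 nt sequences began with U (median 56.4%), and in the 6 rich in it 24.4% to 30.2% (median 26.0%), with no overlap. The share with A at position 10 was 23.1% to 29.0% in the 12 and 18.8% to 22.0% in the 6. The share of U rose with length in the 12, from 34.9% at 20 nt through 55.2% at 26 nt to 70.2% at 29 nt (means over libraries), and was 27.4% at 20 nt and 26.3% at 26 nt in the 6. Within a library the 95% Wilson interval of the U share was narrow by comparison, for example 24.03% to 27.18% around 25.6% in F2 Con replicate 1 and 54.7% to 57.5% around 56.1% in F2 Con replicate 3. Such intervals cover counting error only, and since reads carry no molecular identifiers they are not independent molecules.

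**Figure D1:**
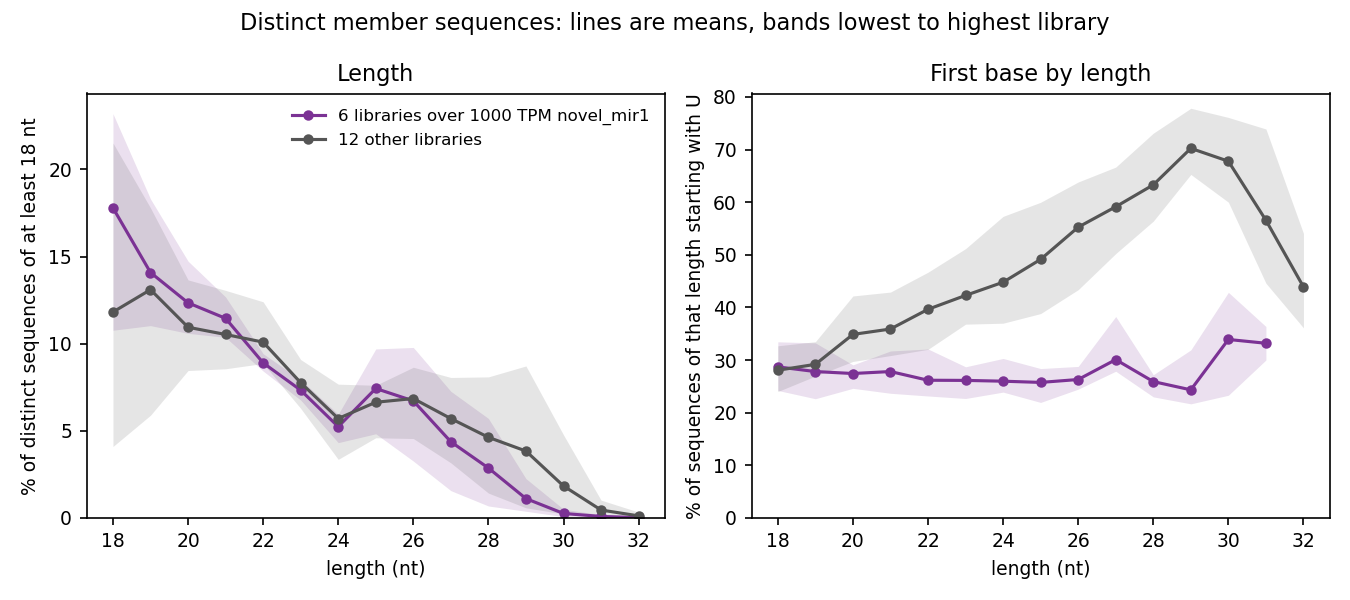
Left, the share (%) of different remaining-class sequences of at least 18 nt at each length in nt; right, the share (%) of the sequences of each length that begin with U. Lines are means over the 6 libraries with over 1000 TPM of novel_mir1 and the 12 others, and bands run from the lowest to the highest library; a library enters the right panel at a length only with enough sequences of it. The U share of the 12 climbs to 70.2% at 29 nt and lies above the band of the 6 at 26 nt.

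The 2 sets also differed in where sequences began. Many remaining-class sequences are listed in forms that differ by 1 base at the 5′ end, in 23811 such pairs. These pairs overlap, since 7141 sequences are the longer form of 1 pair and the shorter of another, and their reads then count more than once. Summed in this way, the shorter forms took 66.8% to 89.0% of the reads in the 6 libraries and 50.3% to 56.9% in the 12. In the 12173 pairs that share no sequence with another pair, the shorter form took 84.9% to 98.4% in the 6 and 31.4% to 48.5% in the 12. For the 24 to 31 nt sequences found in the 6 libraries that had a listed form 1 base longer at the 5′ end, the added base was T in 3708 of 5439 cases (68.2%), against 2195 of 4900 (44.8%) in the 12. The pair novel_pir575602 and novel_pir575604, printed above, shows the split most plainly. The longer form, which begins with G, had 18.4 to 194 TPM in the 12 libraries and 0.0345 to 1.23 TPM in the 6. The shorter form, which begins with the following T, had 0.0782 to 1.57 TPM in the 12 and 46.3 to 649 TPM in the 6. The pair novel_pir290983 and novel_pir208798 did not split in this way, the shorter form holding 26.1% to 50.2% of the pair's reads in the 12 libraries and 34.6% to 70.2% in the 6. What sets the 6 libraries apart was not tested. They are not spread evenly over NHS and Con within each generation. In F0 they are NHS replicate 3 and Con replicate 2, and in F1 only NHS replicate 2. In F2 they are NHS replicate 1 and Con replicates 1 and 2.

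**Figure D2:**
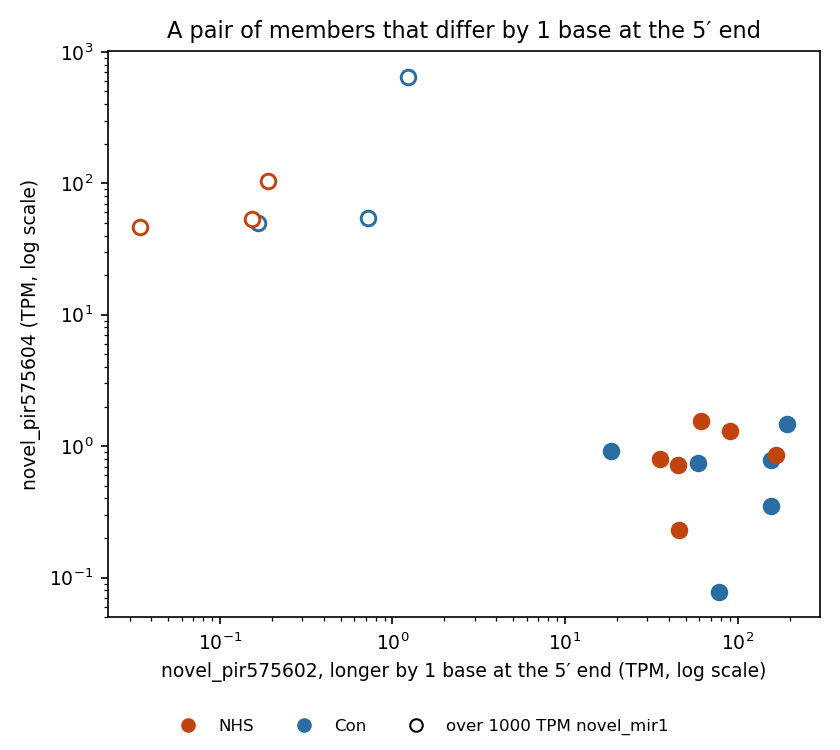
TPM of novel_pir575604 (vertical, log scale) against novel_pir575602 (horizontal, log scale), which is longer by 1 base at the 5′ end, in the 18 libraries; open points are the 6 libraries with over 1000 TPM of novel_mir1. The open points lie at 46.3 to 649 TPM of the shorter form and the filled points at 18.4 to 194 TPM of the longer one.

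The number of different remaining-class sequences was higher in the exposed line in F1 and F2. F1 NHS libraries held 30245, 20751 and 26168 different sequences, against 14841, 11149 and 14439 in F1 Con libraries. F2 NHS libraries held 12541, 23121 and 22314, against 10751, 7904 and 9134 in F2 Con libraries. In F2, marker levels of the cell types moved with this difference. The summed germ cell markers were 8676, 8675 and 12430 TPM in F2 NHS libraries, against 18567, 21672 and 21777 TPM in F2 Con, and the epithelial ones 9582, 18684 and 16308 TPM in F2 NHS, against 4638, 3973 and 6292 TPM in F2 Con. Neither list overlapped between the groups, the other 3 lists did, and their part in the result was not tested; in F1 NHS the markers could be summed in 1 library only. The numbers of sequences did not overlap in either generation, and 3 libraries against 3 cannot reach a p under 0.1, which both generations gave. F0 NHS libraries, the directly exposed males, held 16418, 14786 and 12553, against 17709, 15891 and 15770 in F0 Con, with overlapping groups (exact permutation p = 0.3).

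Over the generations, NHS exceeded Con by a mean of 6812 different sequences (exact permutation within generations, 8000 relabellings, 2-sided, p = 0.011, and 0.044 adjusted over the 4 measures of this kind). Whether the difference changed with generation gave p = 0.0793 by the same kind of permutation, and it is not shown to differ. With same-numbered libraries taken as pairs, the mean of 6812 had an exact permutation p of 0.0508. The Con groups themselves differed between generations, with means of 16457 ± 1086 in F0, 13476 ± 2026 in F1 and 9263 ± 1428 in F2 (SD, n = 3 each; exact permutation p = 0.00357). Their summed germ cell markers were 3983 to 7771 TPM in F0 Con, 12732 to 20354 TPM in F1 Con and 18567 to 21777 TPM in F2 Con, and those of smooth muscle and stroma 62656 to 169492, 5926 to 13214 and 12105 to 29705 TPM in the same order; their part was not tested. At 1 common depth of 36037 remaining-class reads, the Con means were 12261 ± 4828 in F0, 10931 ± 1833 in F1 and 8506 ± 1618 in F2 (SD, n = 3 each). The Con groups were not found to differ at that depth (exact permutation p = 0.375). At the same depth, the mean NHS minus Con difference was 3614 sequences (exact permutation p = 0.026). It was 9059 without the 6 libraries rich in novel_mir1 (exact permutation p = 0.0278), when F2 Con is 1 library, and at a common depth without those 6, over sequences of at least 18 nt, it was 3659 (exact permutation p = 0.122). Counting only sequences with at least 2 reads in a library left 1007 (exact permutation p = 0.163), so the difference lay mostly in sequences read once.

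The excess was not particular to these classes. The same contrast gave p = 0.0198 for L1, 0.0095 for ERVK and 0.01 for ERV1 (exact permutation), and the remaining classes made up 32.5% to 37.2% of all different predicted piRNA sequences in every library, with an NHS minus Con difference of -0.51 points (exact permutation p = 0.387). The 5 libraries with the most sequences, 20751 to 30245, are also the 5 whose full list is longer than the deposited table, which leaves the entries used here whole; the link between the 2 was not tested. F1 NHS replicate 1 was the only library that listed sequences shorter than 18 nt, which held 37.1% of its remaining-class reads. Without sequences that short, the mean difference at a common depth was 3507 (exact permutation p = 0.0273).

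**Figure D3:**
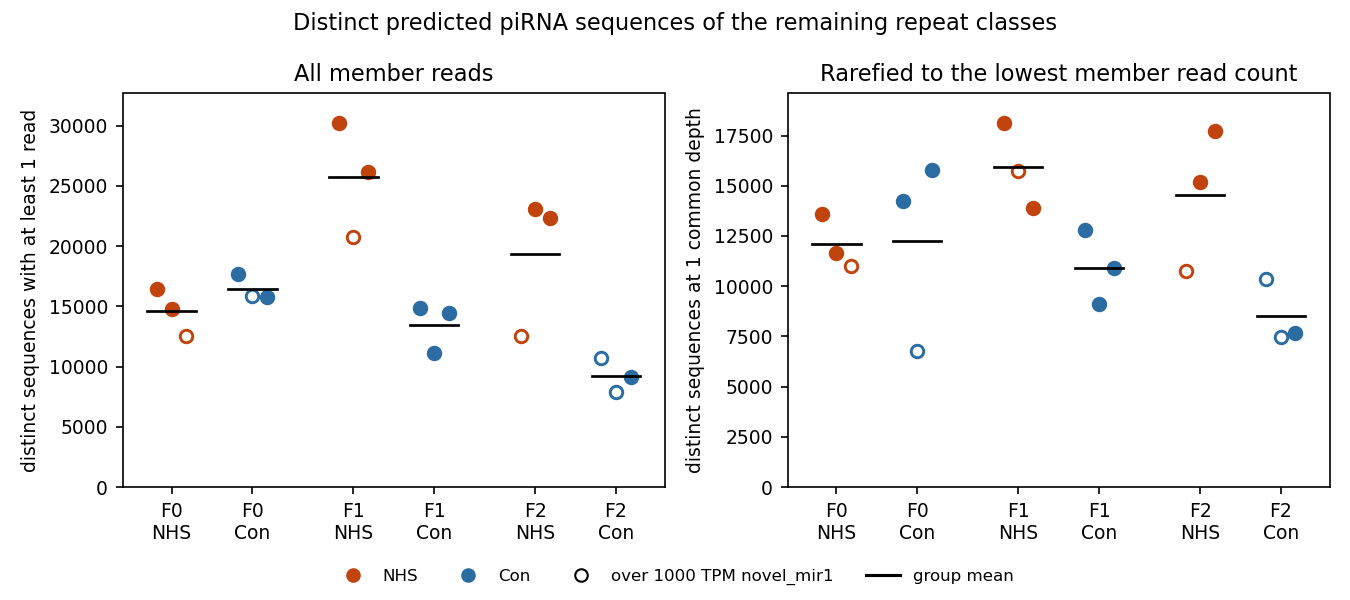
Number of different remaining-class sequences with at least 1 read in each library (left) and at 1 common depth of 36037 reads (right), by generation, NHS in orange and Con in blue; bars are group means and open points the 6 libraries with over 1000 TPM of novel_mir1. In F1 and F2 every NHS point lies above every Con point in both panels, and in F0 the groups overlap.

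The abundance, first base and length of the reads were not found to differ between NHS and Con beyond the spread between libraries. The summed level of remaining-class reads was 1892 ± 120 TPM in F0 NHS against 2811 ± 1560 in F0 Con, 2898 ± 1039 in F1 NHS against 2145 ± 348 in F1 Con, and 2213 ± 460 in F2 NHS against 2258 ± 595 in F2 Con (SD, n = 3 each; exact permutation over generations p = 0.876). The share of reads that began with U averaged 27.4% ± 6.37 in F0 NHS and 28.2% ± 5.64 in F0 Con, 31.7% ± 5.30 in F1 NHS and 40.0% ± 7.65 in F1 Con, and 35.5% ± 7.26 in F2 NHS and 31.2% ± 11.4 in F2 Con (SD, n = 3 each; exact permutation p = 0.648). Mean read length was 21.7 nt in F0 NHS and 21.4 nt in F0 Con, 21.5 nt in F1 NHS and 22.6 nt in F1 Con, and 23.1 nt in F2 NHS and 22.0 nt in F2 Con (exact permutation p = 0.843). None of the 9 classes tested was found to change its share of the reads (exact permutation, smallest adjusted p = 0.608, and 0 of 9 at an unadjusted p under 0.05).

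Within single classes the spread between libraries was wide. MaLR took 41.3% to 68.3% of a library's remaining-class reads and ERVL 21.4% to 47.8%. In F1, MaLR took 58.1% ± 4.14 in NHS and 51.0% ± 2.497 in Con, without overlap (SD, n = 3 each; exact permutation p = 0.1, the smallest possible, and 0.403 over the generations). L2 took 1.14% to 6.43%, hAT-Charlie 1.74% to 5.04% and hAT-Tip100 0.204% to 6.90%. The hAT-Tip100 share was 2.37% ± 1.71 in F0 NHS against 0.536% ± 0.307 in F0 Con, 0.828% ± 0.365 in F1 NHS against 1.73% ± 0.901 in F1 Con, and 2.13% ± 1.52 in F2 NHS against 3.58% ± 2.96 in F2 Con (SD, n = 3 each; exact permutation p = 0.835 over the generations). TcMar-Mariner, a cut-and-paste DNA transposon class, took 1.59%, 1.86% and 2.31% in the NHS libraries rich in novel_mir1, 1 in each generation, and at most 1.25% in any other library. The copy at chr10:39139030-39139749 held 5996 of the 6359 reads of this class. One of its sequences, novel_pir86388 (described below), matched small structural RNA entries in sense, and the origin of the copy's reads was not tested. In F1 the TcMar-Mariner share was 0.785% ± 0.933 in NHS against 0.0986% ± 0.0521 in Con, without overlap. The class LTR/ERVK? did not overlap in F2, with 0.226% ± 0.0426 in NHS against 0.282% ± 0.0255 in Con. Both gave an exact permutation p of 0.1 there (SD, n = 3 each), and 0.538 and 0.694 over the generations.

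**Figure D4:**
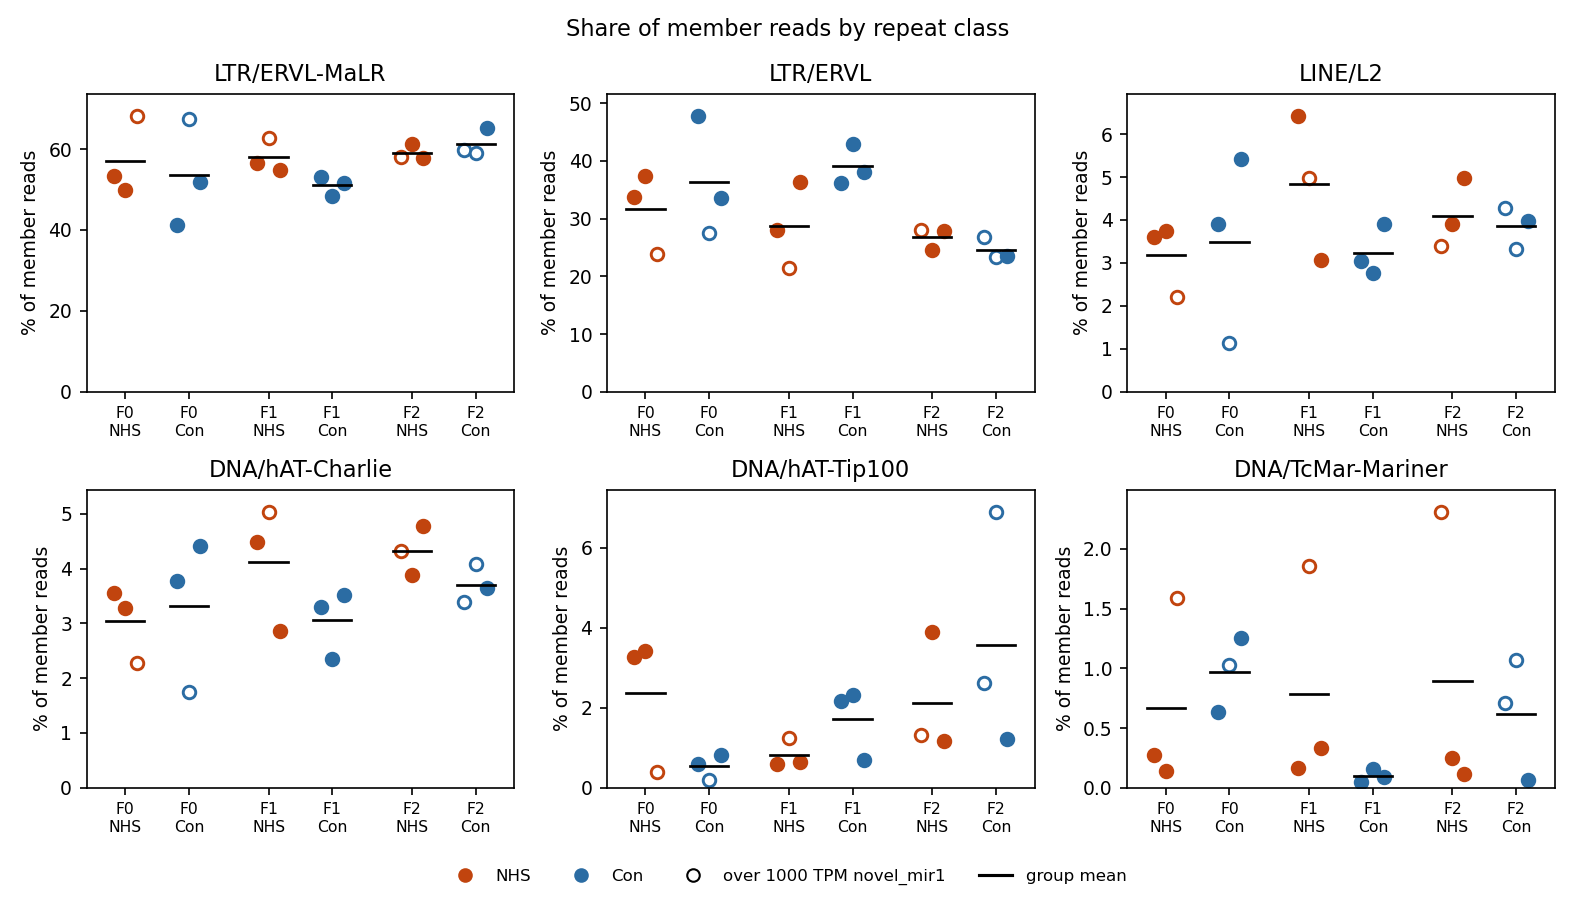
Share (%) of remaining-class reads taken by 6 repeat classes in each library, by generation, NHS in orange and Con in blue; bars are group means and open points the 6 libraries with over 1000 TPM of novel_mir1. MaLR lies between 41.3% and 68.3% and hAT-Tip100 between 0.204% and 6.90%, and the groups overlap in most panels.

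No single remaining-class sequence passed the test between NHS and Con. Sequences with at least 1 CPM (scaled by the library total, as the TPM values are) in 3 or more libraries were tested, which kept 291 of the 220387 and 937 of all predicted piRNAs. edgeR's quasi-likelihood test with Benjamini-Hochberg adjustment called 0 of the 291 in F0 (0% of all 937 called), 0 in F1 (0%), 0 in F2 (0.107%), 0 for the mean effect over generations (0%), 0 for a difference of the effect between generations (0%) and 0 between the Con groups (0%). At an unadjusted p under 0.05, 7 of 291 passed in F0 (background 4.59%), 19 in F1 (6.72%), 32 in F2 (10.2%), 21 for the mean effect (6.62%), 14 for the difference between generations (7.58%) and 38 between Con groups (14%). By direction, the background was 1.49% higher and 3.09% lower in F0 (2 and 5 of the 291), 5.87% and 0.854% in F1 (18 and 1), 7.9% and 2.35% in F2 (21 and 11), and 4.8% and 1.81% for the mean effect (16 and 5). These shares lie near the background or below it. The median log2 fold change of the 291 was -0.06 in F0, -0.22 in F1 and 0.40 in F2, beside 0.15, -0.02 and 0.41 over all 937.

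DESeq2 on the same counts called 1 of the 291 in F0 (1.39% of all 937), 0 in F1 (0.427%), 17 in F2 (4.59%), 13 for the mean effect (2.45%), 1 for the difference between generations (1.07%) and 17 between Con groups (6.08%). Without the 6 libraries rich in novel_mir1, edgeR called 0 of 220 in F0 (0.279% of 718), 3 in F1 (0.975%), 12 in F2 (5.01%), 13 for the mean effect (4.18%), 12 for the difference between generations (6.55%) and 25 between Con groups (9.19%); F2 Con is then replicate 3 alone, assumed to vary like the other groups. Of those 13, 7 came from the MaLR copy at chr10:42856810-42856927 (1 higher and 6 lower in NHS) and 4 from the MaLR copy at chr2:27400951-27402008 (4 higher), so they share letters and are not independent. With no filter, edgeR called 1 of 219061 in F0 (0.0015% of 601270), 3 in F1 (0.00283%), 1 in F2 (0.000832%), 1 for the mean effect (0.00116%), 4 for the difference between generations (0.00249%) and 4 between Con groups (0.00283%). With at least 2 CPM it called 3 of 148 for the mean effect (0.816% of 490). With the set of libraries as a term of the model, edgeR called 2 of the 291 in F2 (0.534% of 937), 5 for the mean effect (0.64%) and 10 between Con groups (4.06%).

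The sequences of smallest p for the mean effect came from that chr2 copy. They are shown, with the others of smallest p in F2, because they are 5′ and 3′ variants of 1 sequence.
novel_pir558486: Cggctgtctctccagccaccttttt
novel_pir558484: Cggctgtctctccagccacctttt
novel_pir558471: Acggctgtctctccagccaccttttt
novel_pir558470: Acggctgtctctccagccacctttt
novel_pir558486 had 3.46, 2.31 and 4.87 TPM in F0 NHS libraries, against 0.274, 1.23 and 0.267 TPM in F0 Con libraries. It had 0.813, 2.17 and 2.56 TPM in F1 NHS, against 0.391, 0.127 and 0 TPM in F1 Con. It had 0.810, 19.8 and 0.346 TPM in F2 NHS, against 0.0836, 0.277 and 0.230 TPM in F2 Con. Every NHS library was above every Con library of its generation, and the F2 mean rests largely on replicate 2. The mean log2 fold change was 3.82 ± 0.87 (SE), with an edgeR adjusted p of 0.119, which does not pass; without the 6 libraries the adjusted p was 0.0376.

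The other variants had the same sign, with smaller mean effects and with groups that overlapped in 1 generation or more. novel_pir558471 had 1.51, 1.02 and 5.29 TPM in F0 NHS against 0.980, 1.28 and 1.17 TPM in F0 Con, and its mean log2 fold change was 3.01 ± 0.70 (SE; edgeR adjusted p = 0.119). novel_pir558484 had the largest F2 value, a log2 fold change of 6.67 ± 1.69 (SE; edgeR adjusted p = 0.178), with 0.617, 14.6 and 0.192 TPM in F2 NHS libraries against 0.0418, 0.111 and 0.0383 TPM in F2 Con. The largest value again came from replicate 2. novel_pir558470 had 1.68, 1.76 and 2.19 TPM in F1 NHS libraries against 0.274, 0.212 and 0.157 TPM in F1 Con, and its mean log2 fold change was 2.77 ± 0.67 (SE; edgeR adjusted p = 0.119). Levels without overlap between NHS and Con in each of the 3 generations, with NHS higher, were found for 1 of the 291 (novel_pir558486) and for 0.107% of all 937. novel_pir558484 reached 1 CPM in NHS libraries only. The other variants reached it in too few Con libraries to pass the filter without NHS ones. They were thus tested only through the group where they are high, and their fold changes and p-values are descriptions.

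**Figure D5:**
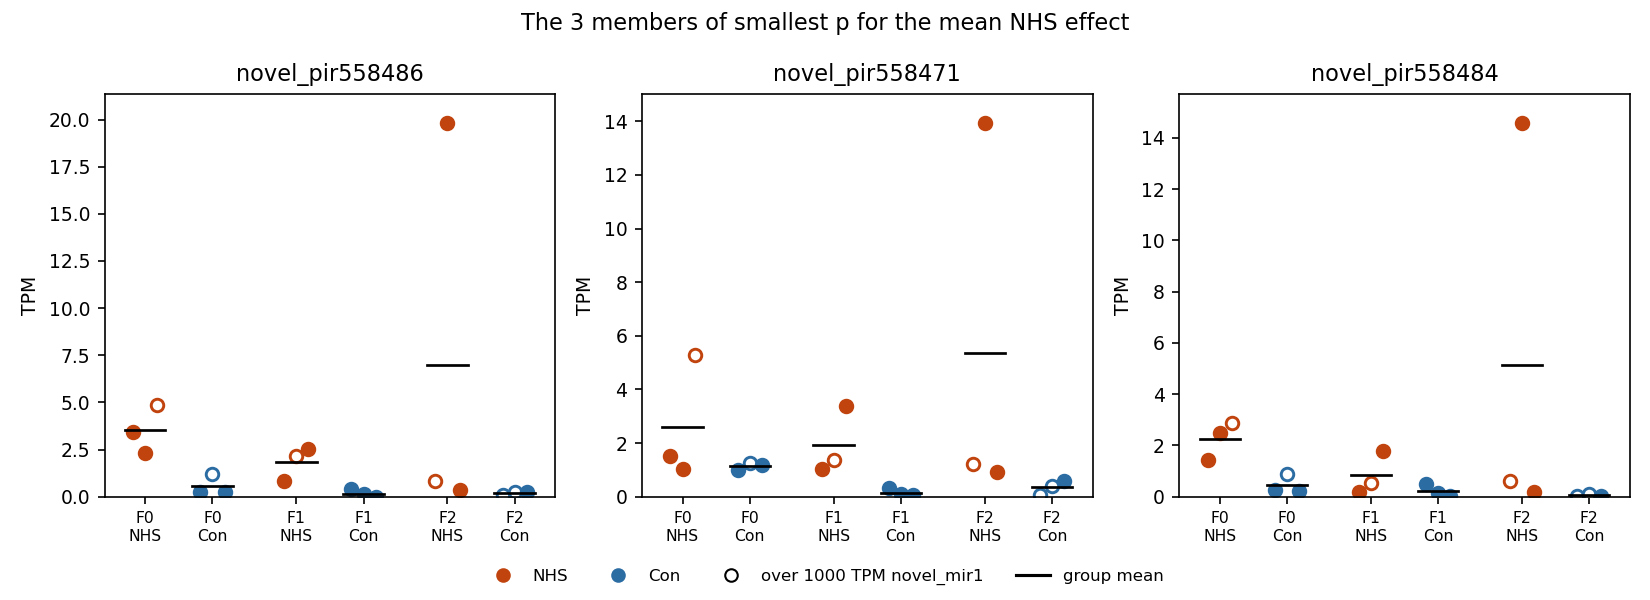
TPM of the 3 remaining-class sequences of smallest p for the mean NHS effect in each library, by generation, NHS in orange and Con in blue; bars are group means and open points the 6 libraries with over 1000 TPM of novel_mir1. For novel_pir558486 every NHS point lies above the Con points of its generation, and F2 NHS replicate 2 stands at 19.8 TPM.

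The opposite pattern was found for 1 sequence of the chr10 MaLR copy, again 0.107% of all 937, which was picked after its values were seen.
novel_pir134147: Gtgtatgtgcttggctgagga
novel_pir134147 had 0.432, 0.306 and 1.13 TPM in F0 NHS libraries, against 2.08, 1.94 and 2.40 TPM in F0 Con libraries. It had 1.10, 0.552 and 0.556 TPM in F1 NHS, against 2.85, 2.25 and 1.53 TPM in F1 Con, and 1.89, 0.362 and 0.538 TPM in F2 NHS, against 2.09, 7.86 and 8.07 TPM in F2 Con. All NHS libraries lay below the Con libraries of their generation. The mean log2 fold change was -1.82 ± 0.56 (SE; edgeR adjusted p = 0.422). Without the 6 libraries the edgeR adjusted p was 0.0230. novel_pir134079, of the same copy and overlapping it, had a positive log2 fold change in F1, with the smallest p of that contrast.

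Among the sequences of smallest p in F1 was novel_pir558471, printed above. It had 1.05, 1.38 and 3.37 TPM in F1 NHS libraries, against 0.313, 0.0850 and 0.0785 TPM in F1 Con. These F1 groups did not overlap, and it did not pass the adjusted edgeR test. The other sequences of smallest p in F0 and F1, listed here, were led by 1 or 2 libraries each.
novel_pir86388: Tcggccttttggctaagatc
novel_pir134175: Atgtgcttggctgaggagc
novel_pir134181: Tgtgcttggctgaggagc
novel_pir134079: Catttggtgtatgtgcttgg
novel_pir274979: Actaagtcttttggaatcaaacctcctt
novel_pir86388 was assigned to a TcMar-Mariner copy at chr10:39139030-39139749 (minus strand, in an intron of Tube1) and matched small structural RNA entries of 33 annotated genes in sense. It had 0.432, 0.306 and 0.189 TPM in F0 NHS libraries, against 9.33, 1.23 and 17.99 TPM in F0 Con, a log2 fold change of -5.18 ± 1.66 (SE; edgeR adjusted p = 0.986). All F0 NHS libraries were below all F0 Con libraries. In F2 its sign was opposite (log2 fold change 3.80 ± 1.59, SE; edgeR adjusted p = 0.417). The edgeR test of a difference between generations gave an adjusted p of 0.617.

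novel_pir134079 had 3.43, 0 and 36.8 TPM in F1 NHS libraries against 0.274, 0.170 and 0.196 TPM in F1 Con, a log2 fold change of 5.42 ± 2.01 (SE; edgeR adjusted p = 0.675), and the groups overlapped. novel_pir134175 had 0.432, 0.238 and 0.378 TPM in F0 NHS against 3.57, 0.709 and 9.61 TPM in F0 Con (edgeR adjusted p = 0.986). novel_pir134181, which is novel_pir134175 without its first base, had 0.360, 0.102 and 0.473 TPM in F0 NHS against 0.863, 4.35 and 3.47 TPM in F0 Con (edgeR adjusted p = 0.986). Both were lower in every F0 NHS library and neither passed the adjusted test. Like novel_pir86388, both passed the filter of the test only with the F0 Con libraries, where they were high. novel_pir274979, from the chr12 copy with the most sequences, had 0.0581, 8.04 and 0 TPM in F1 NHS against 0 in the 3 F1 Con libraries (edgeR adjusted p = 0.675), so its F1 value is 1 library. It had 0.885 to 3.43 TPM in the F2 libraries rich in novel_mir1 and 0 in the other F2 libraries. Both novel_pir274979 and novel_pir134079 passed the filter only with F1 NHS libraries, where they were high. The fold changes and p-values of the sequences listed here are thus descriptions.

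Several of the most abundant sequences differed between the sets of libraries. novel_pir333349 had 24.3, 23.3 and 409 TPM in F0 NHS libraries against 12.4, 1590 and 4.22 TPM in F0 Con, 2.79, 115 and 9.52 TPM in F1 NHS against 1.41, 1.36 and 0.824 TPM in F1 Con, and 139, 21.4 and 2.96 TPM in F2 NHS against 82.1, 145 and 2.07 TPM in F2 Con. The highest value of every group that holds such a library was in a library rich in novel_mir1. Its mean log2 fold change was 1.39 ± 1.17 (SE; edgeR adjusted p = 0.786). The L2 sequence novel_pir354233 went the other way, with 0 to 0.154 TPM in the 6 libraries and 3.28 to 24.5 TPM in the other 12.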

How the data were processed

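Small RNA of 18 mouse sperm libraries (6 groups of 3) was listed by the authors with a read count and a TPM value per entry, per the file headers, and a second deposited file gives each predicted piRNA's repeat class, copy and sequence. Counts divided by TPM give the library totals, 17224467 to 29430555 reads, so these TPM values carry no length term. The genome build was mm10, per the submitters' processing notes; the aligner, the piRNA predictor and its rule for assigning a sequence to 1 copy are not stated by the labels or headers. No column without a sample was found.

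Counts were tested with edgeR 4.0.16 (R 4.3.3; TMM, quasi-likelihood, 6 group means) over all predicted piRNAs in the range where all lists are whole that reached 1 CPM or more in 3 or more libraries, and adjusted over all 937; DESeq2 1.42.0 was an alternative. Measures per library were compared by exact permutation within generations. Sequences of at least 18 nt were searched for in 141767 GENCODE M21 transcripts and 1005 RefSeq hairpins (GRCm38.p6). On counts simulated for F0 over 730 features, the edgeR step recovered 152 of 200 changed features with 2 false calls. Whether that recovery holds at the spread of the real F0 counts was not tested. Sequences were named by abundance (8 with the most reads, the first of each class with at least 1% of reads) and by the 3 smallest p in F0, F1, F2 and for the mean effect; novel_pir134147 and the 5′ pairs were picked after their values were seen. The classes, lists and tests were chosen with earlier results of these data known. Sequences on chromosome 18 are not printed.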

Additional observations from a re-analysis of the deposited data

How the results depend on the processing

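Leaving out 1 library at a time, the mean NHS minus Con difference in different sequences stayed between 6058 and 7943 (exact permutation p 0.00575 to 0.0238, past 0.05 in all 18). With the replicate block it was 6812 (exact permutation p = 0.0508), and with at least 2 reads 1007 (p = 0.163). The values that passed no test changed sign easily: the summed TPM was 2.15 for 24 to 31 nt sequences alone and 248 without the 6 libraries rich in novel_mir1, and lay between -235 and 230 leaving out 1 library; mean length was -0.149 nt with each sequence counted once and -0.495 nt without the 6 libraries, and lay between -0.159 and 0.463 nt leaving out 1 library; the U share lay between -3.10 and 0.52 points leaving out 1 library. Calls of remaining-class sequences (F0, F1, F2, mean effect, difference between generations, Con generations) were 1, 0, 17, 13, 1 and 17 with DESeq2 and 1, 3, 1, 1, 4 and 4 with no filter. With at least 2 CPM 3 were called for the mean effect. With the set of libraries as a model term 2 were called in F2, 5 for the mean effect and 10 between Con groups, and without the 6 libraries 3, 12, 13, 12 and 25 from F1 on. Between Con groups leaving out 1 library gave 0 to 1 (1 of 280 without F1 NHS replicate 2, beside 4 of all 900 tested). The shares over all tested sequences for the other settings with calls are given above. With the replicate block edgeR called 0 in each contrast. The labels do not say whether the numbers pair the samples. Same-numbered libraries correlated between -0.70 and 0.64. In F0 and F2 the correlation was positive where both libraries were of the same set in novel_mir1 and negative where they were not. These values therefore cannot settle whether the numbers pair the samples. The cause of these shifts was not tested. The set term, the results without the 6 libraries and the length limits were chosen after seeing the data. Leaving out structural RNA classes was not run, since no such class is listed.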
